A study of Mus musculus with 8 samples.

Results

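Closed neural tube of embryos from diabetic dams was compared with closed neural tube of embryos from normal dams, using all 4 libraries that the labels give for this tissue, of 8 in the series. Diabetic closed libraries 15 and 16 and normal closed libraries 11 and 12 came from FVB mouse embryos at day 8.5 of gestation, counting the day of the vaginal plug as day 0.5. The tissue was cut by laser from cryosections immediately behind closure site 1, the place on the embryo where the neural folds first meet. The other 4 libraries held tissue still open in front of that site, from diabetic (13, 14) and normal (09, 10) dams. They are used for the spread between libraries and as a second pair of groups. Whether closed and open tissue came from the same embryos or litters is not given. The labels do not say how the dams became diabetic, which glucose level they had, or how many embryos and litters a library pools. The sex of the embryos is also not given.

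The neural tube forms when the neural plate folds and its edges fuse. Signals set up its axes: Wnt and BMP proteins act from the dorsal side and the ectoderm, Hedgehog from the notochord and floor plate, and fibroblast growth factors and retinoic acid along the length of the axis. Somites and blood vessels lie directly beside the tube at this stage. Maternal diabetes before and during early pregnancy raises the risk of neural tube defects, and glucose excess, oxidative stress, folate metabolism and lowered Pax3 are among the processes studied for it. In a SAGE (serial analysis of gene expression) library each transcript gives 1 short tag near its 3′ end, so the count of a gene does not grow with its length. Levels are given as CPM (counts scaled to a common library size), in the order of libraries 15 and 16 for diabetic and 11 and 12 for normal dams.

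The 4 closed libraries held between 5041586 and 7167172 counts. Sox2, a transcription factor of neural progenitors, stood at 306 and 528 CPM with diabetic and 400 and 426 CPM with normal dams. Of 18 neural progenitor genes 17 could be tested. For paraxial mesoderm it was 17 of 20 and for surface ectoderm 15 of 18, so that this count does not show neural identity. Diabetic libraries had counts in 12308 and 12924 genes, normal libraries in 11204 and 11006. Brought to the lowest total, the numbers were 12308 and 12808 against 11174 and 10924, so that the gap remained at equal depth. The libraries of normal dams were less alike (r of log2 CPM across genes 0.826, 37.0% of genes over 2-fold apart) than those of diabetic dams (0.910, 24.5%). Normal closed library 12 stood apart in sex-linked genes: Xist, the RNA that silences 1 X chromosome in females, was at 305 CPM there and at 1.61 to 4.36 CPM in the other 3 closed libraries. Ddx3y, a Y-linked gene, was at 0.456 CPM there and at 192 to 279 CPM in the other 3. Normal open library 10 had the same pattern, with Xist at 289 CPM and Ddx3y at 0.849 CPM. No diabetic library had it, and neither did normal libraries 11 and 09. In library 11 Xist was at 4.36 CPM, beside 1.61 and 2.10 CPM in libraries 15 and 16. The Xist gap between closed groups was thus mainly that of library 12. For other such genes, dam group and this pattern were not separated by a test.

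No single gene passed the test. The edgeR quasi-likelihood test over 11779 genes called 0 (0%), with an adjusted p of 1.00 for each gene, and limma-voom also called 0. Before adjustment, p fell under 0.05 for 107 genes higher with diabetic dams (0.908% of genes tested) and for 31 lower (0.263%), 138 together. If no gene differed and the model's spread were right for the closed libraries, 589 would be expected. That spread was pooled over all 8 libraries. Its biological coefficient of variation (spread between libraries beyond counting error) was 0.859, against 0.556 in a fit of the closed libraries alone. Of the 107, 48 had no count in either normal library, and of the 31, 1 had no count in either diabetic library. DESeq2 called 2 genes (0.017%), the heart and endoderm factors Gata4 (22 and 4 counts against 0 and 0) and Gata6 (18 and 12 counts against 0 and 0). Their DESeq2 log2 fold changes of 20.1 and 20.3 are set against a group without counts and do not measure a size. Both genes had their highest counts in diabetic open library 13, at 1461 and 923. The values below therefore describe how 2 and 2 libraries stood, and no gene is said to have changed. Spread between libraries is all that the p-values measure, since nothing in the labels says which libraries come from separate litters. With 2 against 2 libraries an exact permutation test of a single value cannot go below 0.333 two-sided.

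A gene's groups are called apart when both libraries of 1 kind stood above both of the other. Of the genes tested, 2123 (18%) had both diabetic libraries above both normal ones and 1561 (13.3%) had both below. With at least a 2-fold gap between the nearest libraries, 582 genes (4.94%) were higher and 177 (1.5%) lower. The excess of higher genes lay at low levels. From 1 to 10 CPM, 21.9% of genes were above and 12.8% below, and over 100 CPM, 10.9% were above and 15.6% below. Counts for gene lists are to be read against these shares. The lists were chosen with earlier results of these data known, so that such counts are descriptions and no test.

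**Figure D1:**
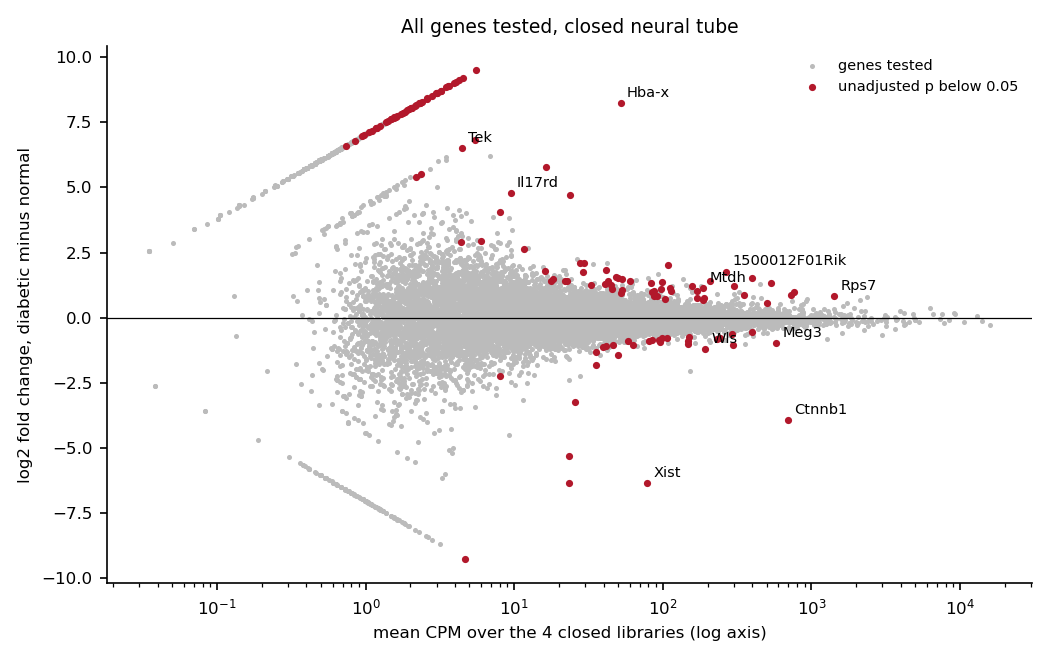
Log2 fold change (diabetic minus normal dams, closed tissue) against the mean level over the 4 closed libraries on a log axis, 1 point per gene tested, with the 138 genes at an unadjusted p below 0.05 in red. The slanted lines of points at the upper left are genes with few or no counts in the normal libraries, and Ctnnb1 stands lowest among genes of over 100 CPM.

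The largest gap among abundant genes was in Ctnnb1, which encodes β-catenin, the protein that links cadherins to actin at cell junctions and carries the Wnt signal into the nucleus. It stood at 79.1 and 90.9 CPM with diabetic dams and at 803 and 1788 CPM with normal dams. The groups were apart by a wide margin, and the libraries of normal dams differed from each other by more than the diabetic ones did. The log2 fold change was -3.93 (SE 0.87, unadjusted p = 0.00113 by the edgeR model over all genes, adjusted p = 1.00), the smallest p of the comparison. In open tissue Ctnnb1 was at 225 and 146 CPM in libraries 13 and 14 and at 773 and 79.7 CPM in libraries 09 and 10, so that normal library 10 was as low as the diabetic closed ones. With 1 of libraries 15, 16, 09 or 10 left out, the adjusted p of edgeR was 0.00875, 0.0063, 0.0457 or 0.0427. Without 11, 12, 13 or 14 it stayed above the threshold. With 15 or 16 left out, the lone diabetic library is assumed to vary like the other groups. In the former fits the log2 fold change lay between -3.81 and -4.01.

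Wls, which encodes the carrier that takes Wnt proteins to the cell surface, was at 115 and 117 CPM against 196 and 341 CPM (log2 fold change -1.21, SE 0.33). The diabetic libraries were nearly equal and below both normal ones, and the open libraries had the same order, at 145 and 108 against 169 and 175 CPM. The imprinted RNA Meg3, expressed from the maternal chromosome, was at 360 and 416 CPM against 741 and 791 CPM (-0.98, SE 0.43). Its open libraries overlapped, at 1844 and 673 against 754 and 1221 CPM. Nphp4, a gene of the transition zone of primary cilia, was at 19.8 and 21 CPM against 53.6 and 48.2 CPM, and at 7.88 and 8.93 against 21.7 and 31.4 CPM in open tissue. Kdm5c, an X-linked histone demethylase gene known to escape X inactivation, was at 142 and 247 CPM against 289 and 515 CPM, highest in library 12, which held Xist. Ctnnb1, Wls, Nphp4 and Kdm5c were among the 12 genes with the smallest p on the lower side. The other 8 were Fam193b, Wdr92, Efs, LOC100503186, Mcoln1, Gbf1, Capn12 and Xist itself. Of the 12 genes 6 were also lower with diabetic dams in open tissue, where 54.8% of all genes below in closed tissue were lower. Xist was among the 6, at 1.94 and 2.94 CPM against 0.101 and 289 CPM in open tissue. Its order there was that of normal open library 10, which held Xist as library 12 did.

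On the higher side, the uncharacterised 1500012F01Rik was at 443 and 384 CPM against 81.7 and 161 CPM (log2 fold change 1.77, SE 0.40). Its open libraries overlapped. Mtdh, a membrane protein gene known from tumour cells, was at 241 and 272 CPM against 111 and 121 CPM (1.14, SE 0.26), with a gap between groups far wider than within them. The small ribosomal subunit gene Rps7 was at 1913 and 1730 CPM against 926 and 1114 CPM (0.84, SE 0.24), and at 1910 and 1554 against 1014 and 882 CPM in open tissue. Rpa2, a subunit of the protein that coats single-stranded DNA, was at 126 and 114 CPM against 33.2 and 61.2 CPM (1.34, SE 0.39). Ube2c, which marks mitotic proteins for destruction, was at 233 and 222 CPM against 128 and 98.0 CPM (1.01, SE 0.29). Ppp6r3, a regulatory subunit of a protein phosphatase, was at 77.9 and 70.2 CPM against 26.5 and 25.1 CPM (1.52, SE 0.44). For Rps7, Rpa2, Ube2c, Ppp6r3 and Mtdh the open groups were apart in the same direction.

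Of the other genes on that side, all but Kif18a had few or no counts in normal libraries. Il17rd, a feedback inhibitor of FGF receptor signalling, was at 23.6 and 13 CPM (117 and 93 counts) against 0.363 and 0.912 CPM (2 and 6 counts). Hba-x, an embryonic globin, had 22 and 1456 counts against 2 and 2, so that library 16 made its mean. Without library 15 its adjusted p by edgeR was 6.92e-09, a fit in which library 16 is the only diabetic closed library and is assumed to vary like the other groups. Tek, the angiopoietin receptor of endothelium, had 17 and 101 counts against 0 and 1. Ttc17 and Fam13b had no count in either normal library. Their diabetic means were 16.3-fold and 19.2-fold a floor of 3 counts over the normal group. The error of the diabetic counts is not included, so that these folds are not lower bounds. Kif18a, a mitotic kinesin gene, was at 154 and 114 CPM against 47.2 and 76.6 CPM. Of these 12 genes 10 were also higher with diabetic dams in open tissue, against 61.2% of all genes above in closed tissue. In 8 of them the open groups were apart. The share over all genes was not counted for this, so that the 8 cannot be weighed and are no support for a difference.

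**Figure D2:**
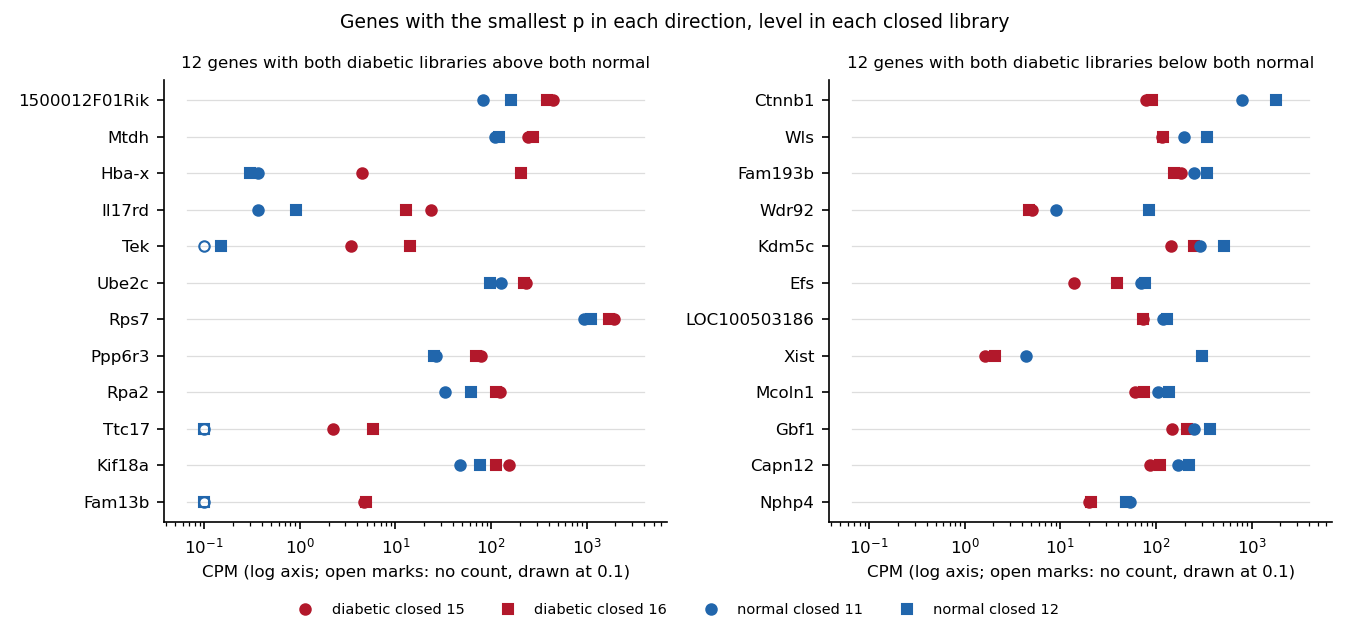
Level (CPM, log axis) in each of the 4 closed libraries for the 12 genes with the smallest p on each side, red for diabetic and blue for normal dams, circles for libraries 15 and 11 and squares for 16 and 12. The red marks of Ctnnb1 at 79.1 and 90.9 CPM stand far left of the blue ones, while Xist is far higher in library 12 than in the other 3.

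In such a library each transcript is counted by 1 short sequence, and transcripts of 1 gene can differ in it. Below are tags predicted for genes described here, as stretches of RNA that the counts may stand for. Each begins at the CATG (capitals) nearest the 3′ end of the main transcript in GENCODE M21 (assembly GRCm38), where the tagging enzyme of such kits cuts. The positions belong to GRCm38 and not to mm9, the build of the counts, and the deposited counts do not record which tag was counted.
Ctnnb1: CATGtttttgaacaaaaactttatcgg
Wls: CATGgtaaacagtgacagagaaaacac
Meg3: CATGgtgctttcaataaatttcttgtt
Rps7: CATGttgatatgggggcattctgctgc
Mtdh: CATGtgatttcccattgtgggattggt
Tek: CATGtattgtaaaattttgtagttttg
Pdgfra: CATGttttgttttaaaaagtgtaaatg

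The Ctnnb1 tag lies at chr9:120960317-120960343 on the plus strand, in the 3′ UTR, 191 bases before the transcript's end. Only 3 of the 15 annotated Ctnnb1 transcripts have this tag as their last one, so that the others would be counted by other tags. The Wls tag is at chr3:159935814-159935840 (plus strand) and the last one of 1 of 7 transcripts. Meg3 has no coding sequence, and its tag is at chr12:109571691-109571717 (plus strand). The Rps7 tag is at chr12:28630938-28630964 (minus strand), the Mtdh tag at chr15:34145351-34145377, the Tek tag at chr4:94874828-94874854 and the Pdgfra tag at chr5:75198136-75198162 (plus strand), each in a 3′ UTR. These tags are the last one of 4 of 11 transcripts for Meg3, 1 of 7 for Rps7 and 1 of 12 for Mtdh. For Tek it is 2 of 4 and for Pdgfra 2 of 9. None of these 7 sequences follows a CATG in an annotated transcript of another gene.

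Wnt pathway genes stood lower with diabetic dams more often than genes in general. Of 31 members tested, 14 (45.2%, against 13.3% of all genes) had both diabetic libraries below both normal ones and 1 (3.23%, against 18%) had both above. The list holds Ctnnb1 and Wls, named above for their small p, so that its share is no separate support. The median log2 fold change was -0.29, against 0.03 for all genes, with 21 members lower and 10 higher, and 0 members passed the test. Of the 14, 12 were also lower in open tissue, against 54.8% of all genes below in closed tissue. No library is shared there, but diabetic open library 13 was low in Sox2, at 30.2 CPM. In open tissue the Wnt median was -0.37, beside -0.51 for neural progenitor genes and -0.81 for dorsal tube and neural crest genes. Whether the Wnt order goes with tissue make-up was not tested. Without library 12 the median was 0.00, with 16 members lower and 15 higher. Without any 1 of the other 3 closed libraries it lay between -0.31 and -0.12.

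Among ligands and their processing, besides Wls, Wnt3a, a dorsal and caudal Wnt protein, was at 3.63 and 1.12 CPM against 6.72 and 7.14 CPM. Porcn, the enzyme that attaches the lipid of Wnt proteins, was at 40.2 and 46.3 CPM against 48.3 and 60.3 CPM. Among secreted antagonists, Sfrp1 was at 490 and 1345 CPM against 1698 and 1533 CPM, with library 15 the lowest. Sfrp2 was at 47.0 and 43.8 CPM against 53.9 and 69.6 CPM. Dkk1, which blocks the Wnt co-receptor, was the member above in both libraries, at 23.4 and 11.9 CPM against 5.45 and 6.69 CPM. Receptors were mixed: Fzd8 was at 23.6 and 44.9 CPM against 55.9 and 50.2 CPM, while the more frequent Fzd7 and Fzd3 overlapped. Axin2, a feedback inhibitor that Wnt signalling induces, was at 143 and 110 CPM against 161 and 148 CPM, Nkd1 at 51.5 and 45.2 CPM against 61.2 and 58.7 CPM, and Tnfrsf19 at 64.8 and 74.7 CPM against 107 and 117 CPM. The choice of Porcn, Sfrp2, Dkk1, Fzd8, Nkd1 and Tnfrsf19 was made after seeing their values.

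**Figure D3:**
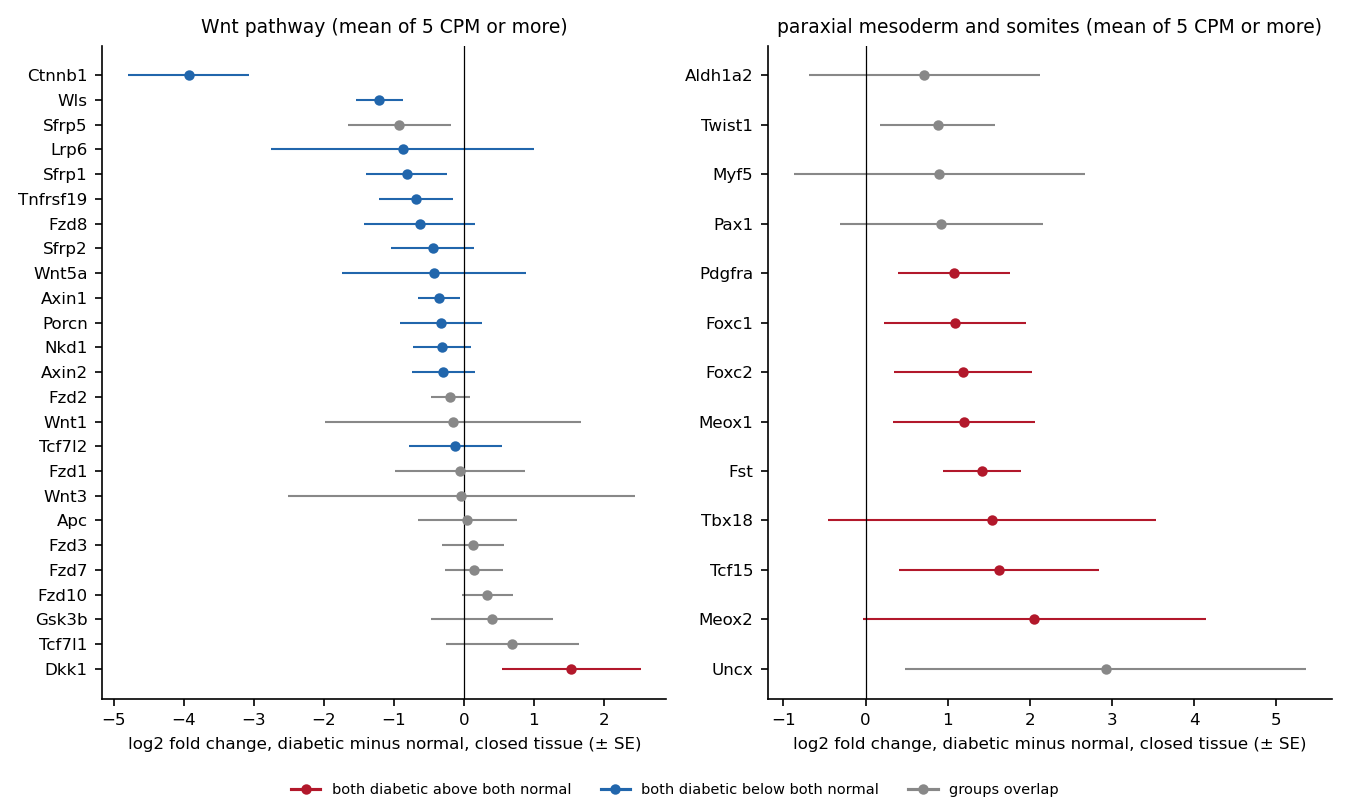
Log2 fold change (diabetic minus normal dams, closed tissue, bars ± SE) of members with a mean of at least 5 CPM over the closed libraries, blue where both diabetic libraries were below both normal ones, red where both were above, grey where groups overlapped. Most Wnt members drawn lie left of 0, with Ctnnb1 at -3.93, and each mesoderm member drawn lies right of it.

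Genes of paraxial mesoderm and somites stood higher with diabetic dams. Of 17 members tested, 16 were higher, with a median log2 fold change of 1.09, and 8 (47.1%, against 18% of all genes) had both diabetic libraries above both normal ones and 0 had both below. No member passed the test. The summed level of the list was 1202 and 872 CPM with diabetic and 572 and 414 CPM with normal dams. The median remained positive whichever closed library was left out, between 0.75 and 1.66. Since the sections were bulk tissue, more cells of a type and more RNA per cell cannot be told apart.

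Fst, which encodes follistatin, an inhibitor of activins, was at 120 and 54.8 CPM against 32.3 and 33.1 CPM (log2 fold change 1.42, SE 0.47). Pdgfra, a growth factor receptor of mesenchyme, was at 149 and 159 CPM against 90.4 and 55.5 CPM (1.08, SE 0.69). In open tissue Pdgfra was at 466 and 65.0 against 30.5 and 31.1 CPM. The higher value is from library 13, which stood apart from the other open libraries, with Sox2 at 30.2 CPM against 277 to 560 CPM in those. Among somite factors, Foxc2 was at 72.7 and 96.8 CPM against 35.4 and 39.1 CPM. Meox1 was at 231 and 91.9 CPM against 62.7 and 78.0 CPM, and Meox2 at 70.4 and 39.4 CPM against 16.9 and 9.57 CPM. Tcf15 was at 31.3 and 8.39 CPM against 7.99 and 4.86 CPM, so that library 15 made most of its gap. Aldh1a2, the enzyme that makes retinoic acid in somites, did not have groups apart, at 266 and 115 CPM against 115 and 117 CPM. Foxc2, Meox2 and Tcf15 were picked after seeing their values.

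Endothelial genes were low throughout, and most of those tested stood higher with diabetic dams. Of 16 members, 11 passed the filter on low counts, 9 higher and 2 lower, with 8 above in both libraries and 0 below. Since 5 of the 8 had no count in either normal closed library and Tek had 1, they passed the filter through libraries where they were higher, and the count is no support for a difference. The 2 lower members were Pecam1, an adhesion gene that defines endothelium, with 0 and 6 counts against 22 and 0, and Emcn, with 3 and 3 counts against 11 and 2. The summed level was 90.2 and 128 CPM against 55.8 and 41.6 CPM. The 5 without a count in normal closed libraries included Tie1, a receptor partner of Tek (34 and 38 counts), the adhesion gene Cdh5 (13 and 73 counts) and Sox17, a factor of arterial endothelium and endoderm (30 and 22 counts). Set against the same floor of 3 counts over the normal group, the diabetic means were 24.5-fold for Tie1, 25.8-fold for Cdh5 and 18.4-fold for Sox17. These folds are again not lower bounds, and library 16 made most of the Cdh5 mean. Cdh5, Pecam1 and Emcn were picked after seeing their values. Of the defining markers, Erg and Etv2 had no count in the 4 closed libraries, and Kdr had none in 3 of them. Egfl7, the most frequent member, was at 47.8 and 56.2 CPM against 37.6 and 26.6 CPM (0.70, SE 0.40). Diabetic libraries also had counts in more genes of any kind: 614 genes had a count in both of them and in neither normal library, against 59 the other way round. With at least 10 counts in each library the numbers were 124 and 23. The part of this gap in the endothelial counts was not tested.

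Blood genes other than Tfrc and Hba-x, and heart genes, gave few counts. Of 15 genes of primitive blood 7 could be tested, with 1 above in both libraries, Hba-x, and 2 below. The 2 below were the transferrin receptor gene Tfrc, at 111 and 144 CPM against 175 and 168 CPM, and Epor, the erythropoietin receptor gene, with 0 and 0 counts against 14 and 15. Epor was picked after seeing its values. The summed level was 116 and 362 CPM against 182 and 171 CPM, most of it Tfrc in the normal libraries, and the globin Hba-a1 and the red cell factor Klf1 had no count in the closed libraries. Heart genes summed to 16.8 and 18.9 CPM against 10.4 and 10 CPM, with 6 of 16 tested. Surface ectoderm, which covers the closed tube, was more frequent, with a summed level of 459 and 192 CPM against 454 and 219 CPM. It had 9 of 15 members higher and a median of 0.02, between -0.54 without library 15 and 0.55 without library 11. Cdh1, its E-cadherin, was at 121 and 44.2 CPM against 117 and 47.6 CPM, so that libraries 15 and 11 were alike, as were 16 and 12.

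**Figure D4:**
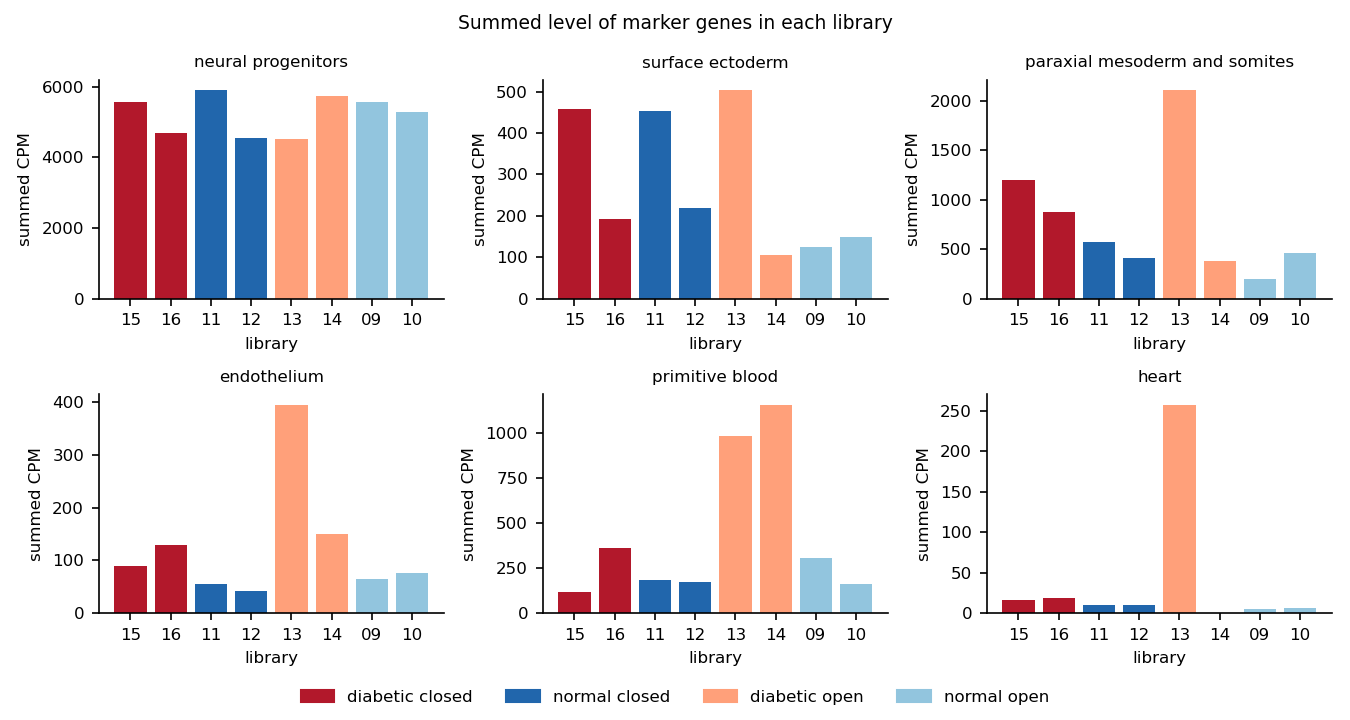
Summed CPM of the members of 6 marker lists (vertical axes from 0, each panel with its own scale) in each of the 8 libraries, coloured by group. Paraxial mesoderm and endothelium stand higher in libraries 15 and 16 than in 11 and 12, surface ectoderm is high in 15, 11 and 13, and open library 13 is highest for mesoderm, endothelium and heart.

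Neural genes did not move together. Neural progenitor genes had a median of 0.03 (-0.08 without library 16, 0.26 without library 15), with 3 of 17 members above in both libraries and 1 below. Pax6, a factor of the ventral and intermediate tube, was at 30.1 and 36.4 CPM against 60.5 and 64.6 CPM. Hes5, a Notch target of progenitors, was at 153 and 155 CPM against 98.4 and 101 CPM, and the neural cadherin Cdh2 at 108 and 107 CPM against 90.1 and 47.6 CPM. Genes of the dorsal tube and neural crest had a median of -0.20, with 15 of 21 members lower, 1 above in both libraries and 3 below. Without library 15 the median was -0.68 and without library 12 it was -0.03. Pax3, the dorsal factor mutated in the Splotch mouse, was at 139 and 50.6 CPM against 76.5 and 101 CPM, and the 2 diabetic libraries lay on either side of both normal ones (0.09, SE 0.69). In open tissue it was at 7.59 and 34.2 CPM against 57.6 and 108 CPM, and the difference between the closed and open effects had an unadjusted p of 0.0611 (edgeR, adjusted p = 1.00). Zic2, another dorsal factor, was at 29.7 and 44.0 CPM against 46.0 and 72.5 CPM.

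Hox genes mark the position along the axis. Of 30 members 16 passed the filter on low counts, and these had 13 higher and a median of 1.06. Both diabetic libraries were above in 5 (31.2%, against 18% of all genes) and below in 0. Hoxb9, a trunk gene, was at 63.0 and 1.68 CPM against 0.363 and 0.760 CPM, and at most 0.849 CPM in open tissue. Its gap was that of library 15, and Hoxb9 passed the filter only through the diabetic closed libraries, so that its place in the count is no support for a difference. Hoxa4 was at 8.88 and 6.71 CPM against 1.45 and 0.608 CPM. Without library 15 the list median was 0.15. The caudal factor Cdx2 was also highest in library 15, at 9.28 CPM, against 1.68 CPM in library 16 and 0.363 and 3.65 CPM with normal dams.

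Genes whose mouse mutants fail to close the neural tube had a median of 0.07 over 73 tested (-0.01 without library 11, 0.23 without library 12), with 11 above in both libraries (15.1%) and 9 below (12.3%), shares near those of all genes. Tead2, a factor of the Hippo pathway, was at 192 and 154 CPM against 72.5 and 13.4 CPM (2.01, SE 0.64), lowest in library 12. Vangl2, of the planar polarity pathway, was at 13.7 and 8.95 CPM against 10.4 and 18.7 CPM, and Grhl3, a factor of the fusing ectoderm, at 3.63 and 6.15 CPM against 2.72 and 5.02 CPM. Sec24b, which exports Vangl2 from the endoplasmic reticulum, was at 92.4 and 123 CPM against 137 and 133 CPM. Of 20 planar polarity genes 2 were above and 3 below, and of 27 genes of actin and apical constriction 2 and 3. Primary cilium genes had 7 of 31 below (22.6%) and 5 above. The 7 were also lower in open tissue, as were 54.8% of all genes below in closed tissue. Foxj1, the factor that drives motile cilia, was among them, at 6.26 and 17.6 CPM against 23.6 and 43.8 CPM.

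In the Hedgehog pathway, which signals through primary cilia, Gli1, its transcriptional target, was at 341 and 385 CPM against 446 and 400 CPM. Gli3, mainly a repressor of its targets, was at 53.7 and 65.6 CPM against 101 and 82.8 CPM, and the co-receptor gene Cdon at 78.5 and 129 CPM against 169 and 166 CPM. Of 14 members 4 were below and 4 above, the latter with few counts. In the FGF pathway the receptor gene Fgfr2 was at 310 and 263 CPM against 492 and 400 CPM (-0.64, SE 0.35), beside the feedback inhibitor Il17rd. The Notch target Hey1 was at 20.6 and 23.8 CPM against 8.54 and 7.14 CPM.

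Glucose transport and glycolysis showed no common direction. Slc2a2, the low-affinity transporter through which embryos are known to take up glucose at high maternal levels, had 0 counts in all 8 libraries. A share up to 3 counts of a library's total is allowed by this, and a lack of tags does not show that a gene was not expressed. Slc2a1, the main transporter of the embryo, was at 479 and 449 CPM against 442 and 549 CPM. Of 7 transporters tested 0 were above and 3 below in both libraries, the 3 with few counts. Of 21 genes of glycolysis and lactate 5 were above (23.8%) and 2 below (9.52%), with a median of 0.02 (-0.03 without library 12, 0.23 without library 15). Slc16a3, which exports lactate, was at 234 and 186 CPM against 135 and 54.4 CPM, and Ldha, the lactate dehydrogenase gene among the most frequent of all, overlapped at 11210 and 15448 CPM against 14858 and 10352 CPM. Oxidative phosphorylation had a median of 0.12 over 67 genes, with 14 above (20.9%) and 7 below (10.4%), and the median was 0.03 without library 11 and 0.28 without library 12.

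Antioxidant genes had 7 of 27 members above in both libraries (25.9%) and 1 below (3.70%), with a median of 0.16. Without library 11 the median was 0.05 and without library 12 it was 0.26. The peroxiredoxin genes Prdx2 and Prdx4 stood at 75.9 and 39.6 CPM against 22.3 and 25.1 CPM, and at 38.9 and 29.9 CPM against 10.7 and 14.6 CPM. Sod2, the mitochondrial superoxide dismutase, was at 65.6 and 69.6 CPM against 54.3 and 29.6 CPM. Gpx1, a glutathione peroxidase, was at 248 and 156 CPM against 154 and 14.7 CPM, with library 12 far below the others. The most frequent member, Prdx1, overlapped at 772 and 774 CPM against 693 and 893 CPM. Sod2 and Gpx1 were picked after seeing their values.

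Genes of the unfolded protein response had a median of 0.06 (0.0025 without library 11, 0.18 without library 12), with 6 of 20 above (30%) and 2 below (10%). The chaperone gene Hspa5 overlapped, at 1013 and 926 CPM against 919 and 1213 CPM. Ddit3, a factor of prolonged stress in this pathway, was lower, at 7.06 and 6.85 CPM against 13.3 and 23.9 CPM, and Trib3, one of its targets, had 19 and 39 counts against 0 and 0. Of 23 autophagy genes 9 were above (39.1%) and 5 below (21.7%), among them the lysosomal membrane gene Lamp1 at 50.7 and 52.0 CPM against 25.8 and 29.0 CPM. In folate and one-carbon metabolism 8 of 24 members were above (33.3%) and 4 below (16.7%), with a median of -0.01 (0.05 without library 16, 0.16 without library 12). Mthfd2, the mitochondrial enzyme of the folate cycle, was at 20.6 and 9.51 CPM against 1.82 and 0 CPM. Dnmt1, the maintenance DNA methyltransferase, was at 337 and 454 CPM against 460 and 517 CPM.

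Ribosomal protein genes had 15 of 48 members above in both libraries (31.2%) and 3 below (6.25%), with 34 higher and a median of 0.17. Most of them lie over 100 CPM, where 10.9% of all genes were above. Besides Rps7, Rpl39 was at 963 and 920 CPM against 309 and 732 CPM. The list was lowest in library 11: without it the median was 0.05 with 25 higher and 23 lower, and without library 12 it was 0.49 with 41 higher and 7 lower. Reads of ribosomal protein genes can be shared with near-identical pseudogenes, so that single members are uncertain. Proteasome genes had 10 of 44 above (22.7%) and 1 below (2.27%). Rpl39 was picked after seeing its values.

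Among imprinted genes, 4 of 22 were above in both libraries and 5 below. In open tissue the 4 were also higher, and 0 of the 5 were lower, where the shares of all such genes were 61.2% and 54.8%. The summed level of the list there was 18974 and 6469 CPM in diabetic libraries 13 and 14. In normal libraries 09 and 10 it was 3754 and 5208 CPM. Library 13, which was low in Sox2, thus made most of the open gap. Igf2, the fetal growth factor expressed from the paternal chromosome, was at 253 and 354 CPM against 194 and 128 CPM. H19, its maternally expressed neighbour, was at 524 and 499 CPM against 382 and 214 CPM. Rian, which shares the imprinted cluster of Meg3, was at 11.7 and 24.6 CPM against 26.5 and 38.3 CPM. H19 and Rian were picked after seeing their values.

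**Figure D5:**
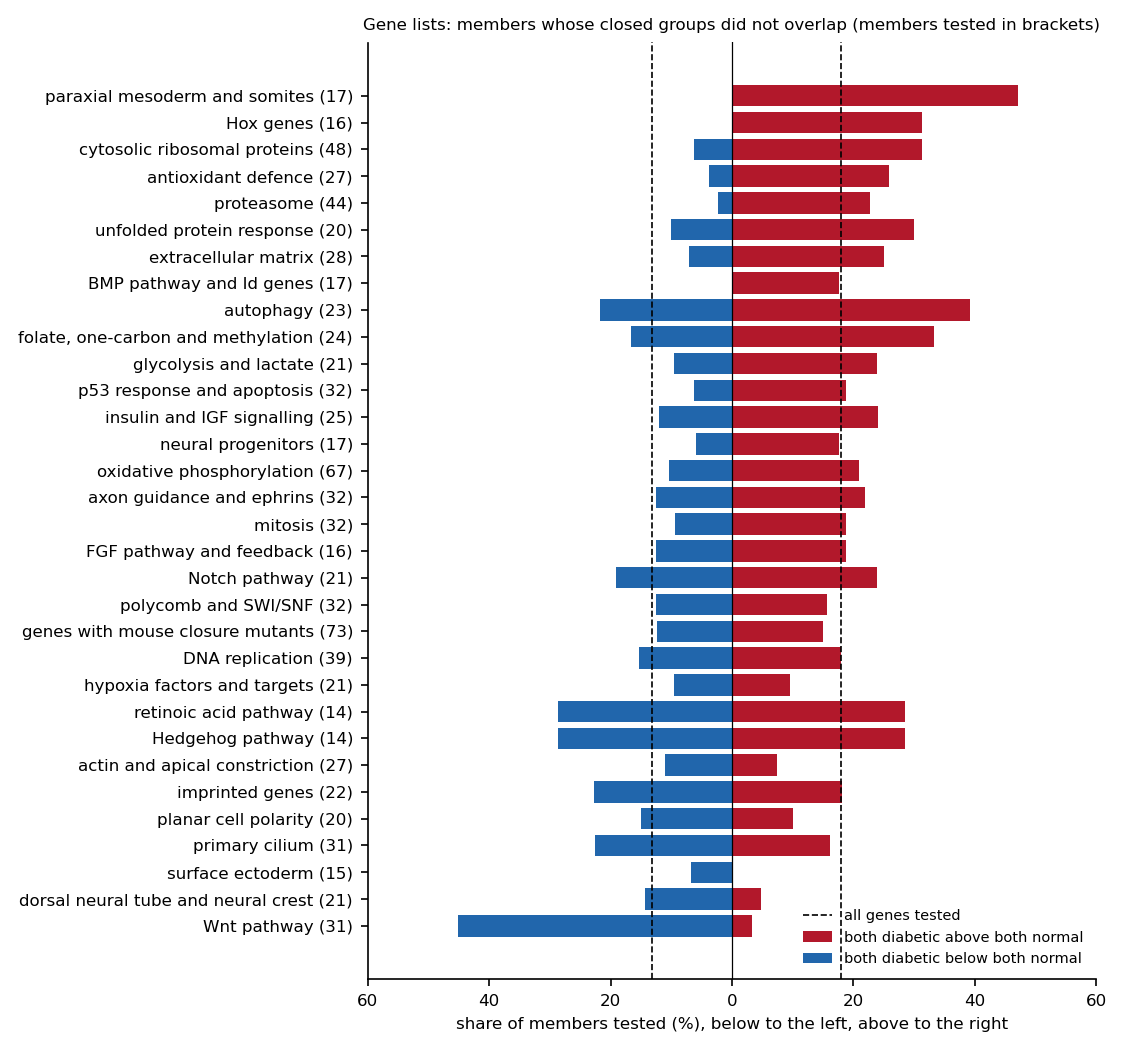
Share of each list's tested members with both diabetic libraries above both normal ones (red, right) and both below (blue, left), for lists of at least 14 members tested, with dashed lines at the shares of all genes (18% and 13.3%). Among the lists drawn, Wnt genes reach furthest left at 45.2% and paraxial mesoderm furthest right at 47.1%. Of shorter lists, not drawn, endothelium had 72.7% above, lateral plate and intermediate mesoderm 66.7% and heart 50%, each with 0% below. Many of their members had few or no counts in normal closed libraries.

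The difference between dams in closed tissue was also set against that in open tissue, which comes from other libraries. Of the 2123 genes above in both closed libraries 61.2% were also higher in open tissue, and of the 1561 below 54.8% were also lower. Of all genes tested, 51.1% were higher and 47.7% lower in open tissue. Across genes, which are not independent replicates, r between the closed and open log2 fold changes was 0.08. The test of the difference between both effects called 0 of 11779 genes by edgeR, while 440 (3.74%) had p under 0.05 before adjustment. By DESeq2 there were 22 calls and by limma-voom 1, Pdcd6, a calcium-binding protein gene (limma-voom adjusted p = 0.0108). Pdcd6 overlapped in closed tissue, at 333 and 475 CPM against 400 and 340 CPM, and was at 4.06 and 28.4 CPM against 528 and 484 CPM in open tissue. Slit1, an axon guidance gene, was at 4.64 and 8.67 CPM against 12.9 and 15.7 CPM in closed tissue and at 0 and 0 against 26.0 and 30.6 CPM in open tissue. Mapk7, a stress-activated kinase gene, overlapped in closed tissue, at 9.49 and 15.7 CPM against 19.4 and 13.8 CPM, and was at 16.1 and 19.5 CPM against 0.101 and 0.170 CPM in open tissue.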

How the data were processed

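The deposited files hold raw tag counts per gene symbol, 1 file per library. Per the labels' protocols, Trizol RNA was used, 7 ng for each library, with the SOLiD SAGE kit and barcodes. Tags were placed on mm9, as the submitters' processing notes list. Neither an aligner nor a counting program, annotation or strand setting is given in the sources used here, so that overlapping and antisense genes cannot be told apart. The members, the 45 gene lists and the naming rule were chosen with earlier results of these data known.

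The tools were edgeR 4.0.16, DESeq2 1.42.0 and limma 3.58.1, run in R 4.3.3. Of 26608 genes listed, 11779 passed filterByExpr (minimum count 10, minimum total 15). Libraries were scaled by TMM, and edgeR's quasi-likelihood F test was run on a model of the 4 groups over all 8 libraries. The closed contrast thus takes its spread from all groups. p-values were adjusted by Benjamini-Hochberg over all genes, with a threshold of 0.05. Standard errors were derived from the F statistic and the fold change. The gene test was also run on simulated counts, which held no differences in sex or tissue make-up, and no statement here rests on that run. Median standard errors were 2.28 at 1 to 10 CPM, 0.65 at 10 to 100 CPM and 0.32 above. The rule named, in each direction, the 12 genes with the smallest p that had groups apart and a mean of at least 10 counts. It added from each list the 2 most frequent members and the 2 with the smallest p, genes absent from 1 group, the most frequent genes, those with the smallest interaction p, and Pax3, Vangl2, Grhl3, Cdx2, Slc2a2, Sox2, Xist, Ddx3y and Pdcd6. Alternatives were DESeq2, limma-voom, other scalings, no filter, the closed libraries alone and each library left out.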

Additional observations from a re-analysis of the deposited data

How the results depend on the processing

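The gene lists, levels and calls were recomputed under 14 alternatives, of which total-count scaling was chosen after seeing the data. Genes called for the closed difference numbered 2 with DESeq2 and 11 without the filter on low counts, and between 0 and 3 with each library left out. With library 15 or 16 left out 3 were called, and with 12, 09 or 10 left out 1. Of the genes named here, 7 were called without the filter: Ctnnb1, Hba-x, 1500012F01Rik, Il17rd, Tek, Xist and Tead2. For the difference between the closed and open effects, 22 were called with DESeq2, 1 with limma-voom, 23 without the filter and between 0 and 9 with each library left out, 9 of them without open library 14. Genes at least 2-fold apart and higher numbered 899 without the filter and 352 with the closed libraries alone. The cause of these shifts was not tested. Leaving out 1 library changes what separated groups mean, and those counts were not recomputed there.

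Of the log2 fold changes of the 95 named genes, 28 of 1327 recomputed values changed sign. With DESeq2, Cdh1 stood at -0.0164 and Sox2 at -0.00716, and with DESeq2's size factors at -0.0166 and -0.00689. With limma-voom Cdh1 was at -0.078, Sox2 at -0.00938 and Pax3 at -0.162, and with the closed libraries alone Cdh1 was at -0.00166. With each library left out, the values ran from -0.876 to 0.828 for Cdh1, -0.228 to 3.88 for Cdx2, -0.511 to 8.72 for Ddx3y, -0.0503 to 0.331 for Fzd3, and -0.303 to 0.858 for Fzd7. They ran from -0.0701 to 0.859 for Grhl3, -0.292 to 0.0934 for Hspa5, -0.153 to 0.397 for Ldha, -0.785 to 0.666 for Pax3, and -0.134 to 0.383 for Pdcd6. For Prdx1 they ran from -0.177 to 0.175, for Slc2a1 from -0.211 to 0.0867, for Sox2 from -0.415 to 0.379, for Vangl2 from -0.690 to 0.146, for Emcn from -1.92 to 0.754, and for Pecam1 from -7.07 to 4.94.

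No paired analysis was possible because the labels do not link closed and open libraries by embryo or litter. No library number occurs in more than 1 group, which does not show that the embryos differed. Depth limits the genes below 10 CPM, where the median standard error was 2.28 or more on the log2 scale.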
